A study of Homo sapiens with 9 samples.

Results

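The 9 genes described here belong to the complement system or regulate it. They are CFI, C3, C1R, C1S, CD46, CD55, CD59, CLU and A2M, taken as the probe sets that the array annotation assigns to each symbol alone, and they are 9 of the 18417 genes measured this way. Each of the 9 had 1 such probe set and none shared with another gene. The cells were NCI-H295R, a human line from 1 adrenocortical carcinoma that makes adrenal androgens, and RNA was hybridized to GeneChip Human Gene 1.0 ST arrays. All cells were plated in normal growth medium for 24 h. Normal growth cells then stayed in that medium, which holds NU-I serum with insulin, transferrin and selenium, for 48 h. Starved cells were kept for 48 h in serum-free medium, and by the study's methods this medium also lacked the insulin, transferrin and selenium, so that the loss of serum and of these supplements cannot be told apart. The metformin cells were kept for 48 h in serum-free medium with 10 mM metformin. Metformin is a biguanide drug that lowers blood glucose. Each group had 3 arrays with the letters A, B and C. The study describes the normal growth and starvation arrays as independent experiments. The metformin arrays are known from the labels alone, and nothing says that they came from separate cultures. A p value of theirs rests on variation pooled over the arrays of both groups compared. The part from the 3 metformin arrays may be only technical variation.

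Complement is a cascade of plasma and cell surface proteins that tags microbes and damaged cells, draws in immune cells and perforates membranes. The proteases C1r and C1s, bound to C1q, start the classical pathway, and all pathways meet at the cleavage of C3. Host cells are protected by regulators. Factor I, the protease encoded by CFI, cuts the activated fragments C3b and C4b only together with a cofactor such as CD46. CD55 breaks up the convertases that cleave C3, CD59 blocks the final assembly of the membrane pore, and clusterin, from CLU, binds the fluid-phase terminal complex. Alpha-2-macroglobulin, from A2M, is a broad protease inhibitor related in structure to C3. The liver makes most of the plasma proteins, but many other cell types express complement genes.

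The promoters of CFI and C1R, whose values moved together over the arrays, and of CD55 and CD59, whose values moved in opposite ways with metformin, are shown so that they can be compared. Each sequence is the 250 bases before the transcription start in RefSeq on GRCh38.p14, written 5′ to 3′ on the strand of the gene, and the start listed first was taken for C1R and CD59. Capitals mark matches, on either strand, to the C/EBP motif TTGCNNAA, the STAT motif TTCNNNGAA, the interferon motif GAAANNGAA, the CRE core TGACG, the GC box GGGCGG and the CCAAT box CCAAT. None of the capitals overlap one another here. RefSeq promoters were scanned for 5 of the 9 genes, which were CFI, C1R, CD46, CD55 and CD59. No sequence was available for C3, C1S and A2M, and CLU was left out.
CFI, chr4:109802000-109802249, minus strand: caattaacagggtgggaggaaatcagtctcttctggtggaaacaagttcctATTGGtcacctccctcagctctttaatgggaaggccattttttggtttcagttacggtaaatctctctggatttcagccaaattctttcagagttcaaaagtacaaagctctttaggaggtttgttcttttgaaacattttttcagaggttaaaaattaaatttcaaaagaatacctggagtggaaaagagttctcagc
C1R, chr12:7092446-7092695, minus strand: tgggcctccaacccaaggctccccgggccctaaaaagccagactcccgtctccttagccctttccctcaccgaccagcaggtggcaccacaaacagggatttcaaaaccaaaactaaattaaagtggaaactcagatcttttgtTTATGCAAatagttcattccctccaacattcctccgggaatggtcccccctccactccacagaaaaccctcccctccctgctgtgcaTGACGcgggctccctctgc
CD55, chr1:207321428-207321677, plus strand: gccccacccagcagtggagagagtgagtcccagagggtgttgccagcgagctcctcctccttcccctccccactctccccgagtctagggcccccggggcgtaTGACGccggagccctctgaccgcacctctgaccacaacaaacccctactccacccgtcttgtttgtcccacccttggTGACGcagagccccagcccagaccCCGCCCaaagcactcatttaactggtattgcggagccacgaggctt
CD59, chr11:33736480-33736729, minus strand: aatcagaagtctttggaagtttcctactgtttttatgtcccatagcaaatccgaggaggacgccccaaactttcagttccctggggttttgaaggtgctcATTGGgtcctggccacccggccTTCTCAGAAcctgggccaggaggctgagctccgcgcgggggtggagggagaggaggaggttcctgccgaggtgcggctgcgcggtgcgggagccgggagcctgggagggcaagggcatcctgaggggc

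The CFI promoter held 38.0% G and C, against a median of 58.0% over 27305 RefSeq promoters of the same length, while C1R held 54.0%, CD59 62.0% and CD55 64.0%. Counted from the start, where -1 is the base before it, CFI had a CCAAT box at -199 and no other match. A CCAAT box occurred in 33.0% of all promoters. C1R had a C/EBP match at -106 and a CRE core at -19, motifs found in 9.13% and 21.7% of all promoters. CD55 had CRE cores at -147 and -70 and a GC box at -46, the latter found in 42.3% of all promoters. CD59 had a CCAAT box at -150 and a STAT motif match at -128. The STAT motif occurred in 6.78% and the interferon motif in 7.06% of all promoters, and the latter matched none of the 4 sequences. CFI and C1R shared none of these motifs. Such matches describe the letters in this window and are not evidence of binding.

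The deposited values are log2 expression values normalized with RMA, so that a difference of 1 is a 2-fold change. Array medians lay between 6.04 and 6.16. Values of different genes come from different probes and are not compared with each other. Of 11 adrenocortical markers measured, 8 to 9 lay above the median of their array on each array. No endothelial marker of 8 did so on any array, nor did more than 1 of 8 hepatocyte markers or 2 of 7 immune markers. Of 10 fibroblast markers, 4 lay above the median on every array, and their mean log2 value ranged from 5.38 to 5.39 in normal growth, 5.28 to 5.32 in starvation and 5.21 to 5.33 with metformin.

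CFI was lower in starved cells and took an intermediate level with metformin. In normal growth its log2 values were 9.23, 9.01 and 9.17 on arrays A, B and C. In starvation they were 8.18, 7.81 and 8.21, and with metformin 8.43, 8.43 and 8.28. The 3 groups did not overlap, and starved array B was the lowest of all, while the median of that array was the highest of the 9, at 6.16. The mean was 9.14 ± 0.11 (SD, n = 3) in normal growth, 8.07 ± 0.22 in starvation and 8.38 ± 0.09 with metformin. Starvation minus normal growth was -1.07 (SE 0.12, 95% CI -1.37 to -0.76), 2.09-fold lower, with a limma adjusted p of 0.0656, above the 0.05 threshold. This was the seventh largest change, in either direction, among all genes in that comparison. The study listed CFI among genes it chose on these same arrays as significant after adjustment for multiple testing. That listing is therefore not independent evidence of the direction. The study also measured the genes it chose by qRT-PCR in independent experiments, and reported that the array changes were borne out. Those PCR data were not examined here. In such bulk RNA, fewer cells with the transcript and less transcript per cell cannot be told apart. The limma call for CFI depended on the processing. With all 9 arrays in 1 fit the adjusted p was 0.0162, with dim probe sets removed it was 0.0249, and over all alternatives it ranged from 0.0162 to 0.366. Without starved array B the difference was -0.94 and the adjusted p 0.0746.

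Between metformin and normal growth, the CFI level fell by 0.76 (SE 0.08), 1.69-fold, with a limma adjusted p of 0.0074. This call remained when each array was left out in turn, with adjusted p values up to 0.0485. The difference between metformin and starvation was +0.31 (SE 0.12, 95% CI 0.01 to 0.61) with a limma adjusted p of 0.238, so the order of starvation and metformin was not separated beyond the spread by this test. FAP, a surface protease on the fibroblast marker list, had a similar order of levels, with a mean of 8.19 in normal growth, 7.28 in starvation and 7.83 with metformin. Its limma adjusted p was 0.146 in starvation minus normal growth, 0.0755 in metformin minus normal growth and 0.1 in metformin minus starvation. COL1A1, another fibroblast marker, was at 7.39, 7.34 and 7.12. FBLN1, also on that list, was at 7.99, 8.03 and 8.09 on the normal growth arrays and at 8.07, 7.98 and 8.11 in starvation, which overlapped. With metformin it was at 7.87, 7.84 and 7.93. Over the 10 fibroblast markers the median difference was -0.02 in starvation minus normal growth, with 6 of the 10 lower and 4 higher. In metformin minus starvation it was -0.05, with 7 of the 10 lower and 3, FAP among them, higher. No gene of the fibroblast, endothelial, immune or hepatocyte lists was called by limma in any comparison. Fibroblast markers with an unadjusted p under 0.05 numbered 1 in starvation minus normal growth, 2 in metformin minus starvation and 3 in metformin minus normal growth, and the other 3 lists had none. Over all genes, in the same order, 9.88%, 23.6% and 28.5% had an unadjusted p under 0.05, and 0.228%, 6.03% and 12.5% were called. The part of these markers in the CFI result was not tested.

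**Figure D1:**
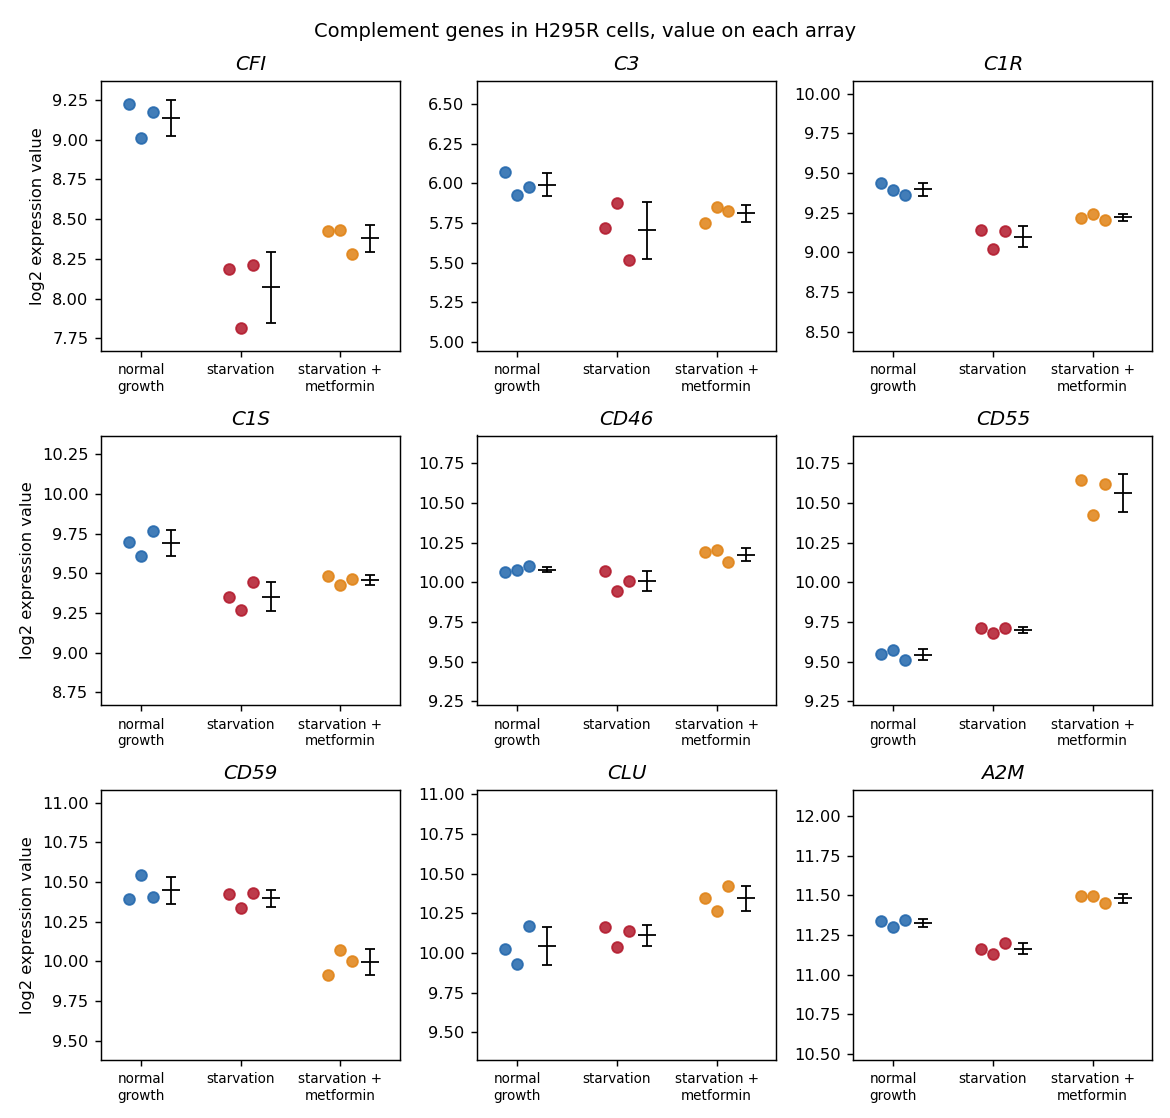
Log2 expression value of each gene on each array in normal growth, starvation and starvation with metformin. Points are arrays A, B and C from left to right, the black mark is the group mean with its SD (n = 3), and all panels span the same number of log2 units, although each axis starts above 0. CFI lies between 9.01 and 9.23 in normal growth and below 8.5 in both serum-free groups, and CD55 lies above 10.4 only with metformin.

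The proteases that start the classical pathway followed CFI over a narrower range. C1R was at 9.44, 9.39 and 9.36 in normal growth, at 9.14, 9.02 and 9.14 in starvation and at 9.22, 9.24 and 9.20 with metformin. The 3 groups did not overlap. Starvation minus normal growth was -0.30 (SE 0.05, 95% CI -0.43 to -0.17), with a limma adjusted p of 0.174, and metformin minus normal growth was -0.18 (SE 0.05, adjusted p 0.0835). C1S was at 9.70, 9.61 and 9.77 in normal growth, at 9.35, 9.27 and 9.45 in starvation and at 9.49, 9.42 and 9.47 with metformin. Both serum-free groups lay below normal growth, and they overlapped each other. Starvation minus normal growth was -0.34 (SE 0.07, 95% CI -0.51 to -0.17) for C1S, with a limma adjusted p of 0.211, and metformin minus normal growth was -0.23 (SE 0.06, adjusted p 0.0705). Neither protease passed the threshold in any of the 3 comparisons, and metformin minus starvation was +0.12 for C1R and +0.10 for C1S (adjusted p 0.328 and 0.454).

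C3, the central component of the cascade, was near the median of the arrays. It was at 6.07, 5.93 and 5.97 in normal growth, at 5.72, 5.88 and 5.52 in starvation and at 5.75, 5.85 and 5.83 with metformin. It lay above the median of its array on 1 of 9 arrays, whereas the other 8 genes did so on all 9. Both serum-free groups lay below normal growth and overlapped each other. The difference of starvation from normal growth was -0.29 (SE 0.10, adjusted p 0.516), and that of metformin was -0.18 (SE 0.06, adjusted p 0.143). Between metformin and starvation C3 differed by +0.11 (95% CI -0.14 to 0.35, adjusted p 0.629).

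Of the membrane regulators, CD55 rose with metformin and CD59 fell. CD55 was at 9.55, 9.58 and 9.51 in normal growth, at 9.71, 9.68 and 9.71 in starvation and at 10.64, 10.42 and 10.62 with metformin. Starved arrays A and C had the identical value, which median polish can give, so the starved SD of 0.02 may understate the spread. The groups did not overlap, and the step from starvation to metformin was wider than the one from normal growth to starvation. CD55 rose by 0.86 (SE 0.08, 95% CI 0.68 to 1.05) from starvation to metformin, 1.82-fold, with a limma adjusted p of 0.0137. From normal growth to metformin it rose by 1.02 (SE 0.07), 2.03-fold, with an adjusted p of 0.00504. Both comparisons use the metformin arrays, as the 2 comparisons of starvation share the starved arrays, so they are not independent. Starvation minus normal growth was +0.16 (SE 0.04, adjusted p 0.351). The metformin minus starvation call ended without starved array A (adjusted p 0.103), B (0.0606) or C (0.107) or without metformin array A (0.0615), and in each of these fits 0 of 18417 genes passed, while the CD55 change stayed between 0.82 and 0.87. Against normal growth the CD55 call remained when each array was left out.

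CD59 was at 10.39, 10.55 and 10.41 in normal growth, at 10.42, 10.34 and 10.43 in starvation and at 9.91, 10.07 and 10.00 with metformin. The metformin arrays lay below all the others, and normal growth overlapped starvation. CD59 fell by 0.40 (SE 0.07, 95% CI -0.56 to -0.24) from starvation to metformin, 1.32-fold, with a limma adjusted p of 0.0338, and by 0.45 (SE 0.07) from normal growth, 1.37-fold, with an adjusted p of 0.0183. Starvation minus normal growth was -0.05 (95% CI -0.20 to 0.10, adjusted p 0.893). The metformin minus starvation call ended when any 1 of the 6 arrays was left out (adjusted p 0.06 to 0.154), with the arrays shifted to a common median (0.0725) and with the methods' t-test (0.0618), while the change stayed between -0.44 and -0.36. In 4 of those 6 fits, the ones without a starved array or metformin array A, no gene of the 18417 passed. The metformin minus normal growth call ended without normal growth array A (0.0738), B (0.0746) or C (0.0732) or metformin array A (0.0514), and with the methods' t-test (0.0529), with changes from -0.49 to -0.40.

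CD46, the membrane cofactor of factor I, varied least of the 9 genes, over 0.26 log2 units. It was at 10.07, 10.08 and 10.10 in normal growth, at 10.07, 9.95 and 10.01 in starvation and at 10.19, 10.20 and 10.13 with metformin. The metformin arrays lay above all the others. Metformin minus starvation was +0.16 (SE 0.06, 95% CI 0.02 to 0.31), with a limma adjusted p of 0.199, metformin minus normal growth was +0.09 (adjusted p 0.32) and starvation minus normal growth was -0.07 (adjusted p 0.812). CD46 passed in none of the comparisons.

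The secreted inhibitors were both highest with metformin. A2M was at 11.34, 11.30 and 11.34 in normal growth, at 11.16, 11.13 and 11.20 in starvation and at 11.50, 11.50 and 11.45 with metformin. The groups did not overlap, with starvation lowest. A2M rose by 0.32 (SE 0.05, 95% CI 0.19 to 0.45) from starvation to metformin, 1.25-fold, with a limma adjusted p of 0.0345. Metformin minus normal growth was +0.15 (SE 0.05, adjusted p 0.107) and starvation minus normal growth was -0.16 (SE 0.04, adjusted p 0.343). The A2M call ended without any 1 of the 6 arrays (adjusted p 0.052 to 0.147) and with a common median (0.137), while the change stayed between 0.29 and 0.34. CLU was at 10.02, 9.93 and 10.17 in normal growth, at 10.16, 10.04 and 10.14 in starvation and at 10.35, 10.26 and 10.42 with metformin. Its metformin arrays lay above all the others, and the other groups overlapped. Metformin minus starvation was +0.23 (SE 0.07, adjusted p 0.128), and metformin minus normal growth was +0.30 (SE 0.08, adjusted p 0.0779), neither of which passed.

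Counted over the 9 genes in starvation minus normal growth, limma called 0, against 0.228% of all genes called, with 0.0652% higher and 0.163% lower. Of the 9, 6 had an unadjusted p under 0.05, against 9.88% of all genes, and the methods' t-test also called 0 of the 9 and 30 of all genes. The 9 were chosen with earlier results of these data known, and all but C3 lay above the array median on every array. Among all genes many are dim, and with dim probe sets removed 13.5% had an unadjusted p under 0.05. The excess is therefore not evidence about complement genes as a set. The starved arrays lay wholly below normal growth for 5 genes (CFI, C3, C1R, C1S and A2M), against 9.62% of all genes, and wholly above for CD55, against 6.86%. The median difference of the 9 was -0.16, beside -0.00072 over all genes. In metformin minus starvation, 3 of the 9 were called, 2 higher and 1 lower, against 6.03% of all genes (3.14% higher and 2.89% lower). Arrays were wholly separated upward for 6 genes, against 15.7% of all genes, and downward for CD59, against 15.2%. The median was +0.16, beside -0.03 over all genes. In metformin minus normal growth, 3 of the 9 were called, 1 higher and 2 lower, against 12.5% of all genes (6.15% higher and 6.36% lower). Separation was upward for 4 genes and downward for 5, against 16.8% and 19% of all genes, and the median was -0.18, beside -0.02 over all genes.

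**Figure D2:**
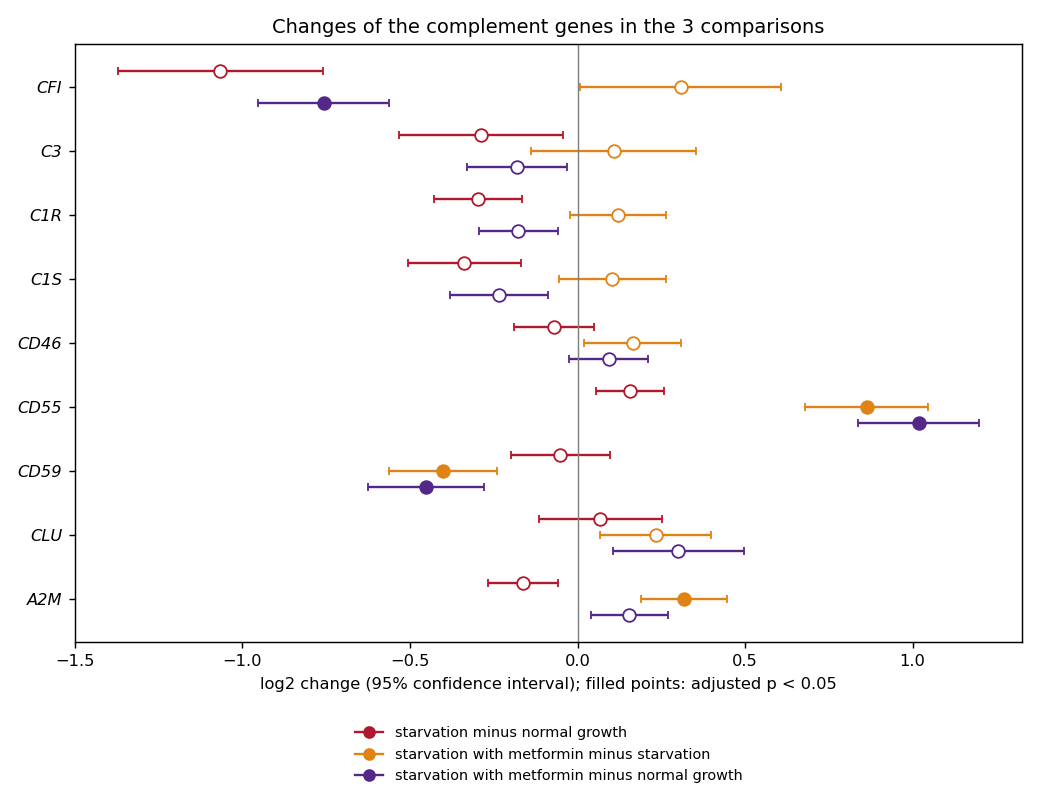
Log2 change of the 9 genes in the 3 comparisons, with 95% confidence intervals from limma (6 arrays a comparison). Filled points had an adjusted p under 0.05, and intervals are not adjusted for the number of genes. CD55 lies at 0.86 and 1.02 in the metformin comparisons, CD59 at -0.40 and -0.45, and CFI has its largest change, -1.07, as an open point.

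Over the 9 arrays the 9 genes fell into sets with similar patterns, given here as a description because the arrays share groups. CFI ran with C1R (Pearson r of 0.98) and C1S (0.96), and C1R with C1S (0.91). CD55 ran against CD59 (-0.96) and with CLU (0.87), and CD46 ran with A2M (0.91). CFI was only loosely related to CD55 (-0.36), CD59 (0.31) and CD46 (0.27). Among 2303 genes whose range was at least 0.5 of that of CFI, the patterns most like it were those of MAP3K5 (0.97), a stress kinase, FHL2 (0.97), a LIM domain cofactor, CCDC3 (0.97), SELENOW (0.97), a selenoprotein, and RARB (0.96), a retinoic acid receptor. SELENOW had a mean of 9.54 in normal growth, 8.56 in starvation and 8.82 with metformin. RARB had means of 6.08, 4.74 and 5.33 in the same order.

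Of 53 other complement genes on fixed lists, 47 were measured by a probe set of their own. In starvation minus normal growth 1 of the 47 was called, against the 0.228% of all genes. It was C1RL, a relative of C1R, at 7.93, 7.90 and 7.92 in normal growth, 7.35, 7.20 and 7.36 in starvation and 8.23, 8.43 and 8.30 with metformin. The groups were widely apart, with starvation lowest and metformin highest. C1RL fell by 0.62 (SE 0.06, adjusted p 0.0423) in starvation, and rose with metformin by 1.02 (SE 0.08, adjusted p 0.0119) from starvation and by 0.40 (SE 0.06, adjusted p 0.0196) from normal growth. The starvation call was lost without normal growth array A, B or C or starved array A or C, and with a common median or the methods' t-test. The metformin minus starvation call was lost without any starved array or metformin array A, and the metformin minus normal growth call without any normal growth array or with the methods' t-test.

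With metformin, 3 of the 47 passed against starvation and 3 against normal growth, beside 6.03% and 12.5% of all genes, and both times they were C1RL, COLEC12 and SUSD4. The first share is close to the background and the second below it, but most of the 47 were dim. With probe sets under the 40th percentile removed, 3 of 15 and 3 of 14 were called, while calls over all genes rose from 1110 to 1970 and from 2305 to 3284. COLEC12, a scavenger receptor of the collectin family, was at 6.81, 6.87 and 6.81 in normal growth, 6.95, 6.84 and 6.99 in starvation and 7.38, 7.42 and 7.40 with metformin. It rose by 0.47 (SE 0.06, adjusted p 0.0218) from starvation and by 0.57 (SE 0.05, adjusted p 0.00535) from normal growth. SUSD4, a membrane protein that inhibits complement, was at 5.72, 5.77 and 5.98 in normal growth, 5.63 on all 3 starved arrays, which were identical, and 5.32, 5.35 and 5.37 with metformin. It fell by 0.28 (SE 0.05, adjusted p 0.0406) from starvation and by 0.47 (SE 0.08, adjusted p 0.023) from normal growth. Only COLEC12 kept its call against normal growth without normal growth array A, B or C. The SUSD4 call was lost without any 1 array in metformin minus starvation, and without any array but metformin C in metformin minus normal growth. The COLEC12 call against starvation was kept only without metformin array C, and with a common median both COLEC12 and SUSD4 lost that call. SUSD4 also lost it with trend and robust eBayes, and lost its call against normal growth with the methods' t-test.

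No gene of the alternative pathway (3 measured), the terminal pathway (7) or the receptors (9) was called by limma in any comparison. Over all genes the share called was 0.228% in starvation minus normal growth, 6.03% in metformin minus starvation and 12.5% in metformin minus normal growth. Most of the 47 were dim. With probe sets under the 40th percentile removed, 16, 15 and 14 of them were left in these comparisons, so the lack of calls says little about dim genes. At an unadjusted p under 0.05 there was 1 terminal pathway gene in each comparison and none of the alternative pathway or the receptors. Over all genes that share was 9.88%, 23.6% and 28.5% in the same order of comparisons. C5 of the terminal pathway was at a mean of 8.10 in normal growth, 8.17 in starvation and 8.40 with metformin (adjusted p 0.159 for metformin minus normal growth). C9 was at 4.28, 4.47 and 4.17 (adjusted p 0.599 for starvation minus normal growth). CFB, the protease of the alternative pathway convertase, was at 5.14, 5.20 and 5.19, and CFP, properdin, which stabilizes that convertase, was at 5.72, 5.70 and 5.58 (adjusted p 0.478 for metformin minus normal growth). Among the receptors, VSIG4, a macrophage receptor for C3 fragments, was at 4.39, 4.53 and 4.19 (adjusted p 0.301 for metformin minus starvation), CD93 was at 4.29, 4.39 and 4.16 (adjusted p 0.361 for metformin minus normal growth), and C5AR2, a receptor for C5a, was at 4.47, 4.33 and 4.36 (adjusted p 0.761 for starvation minus normal growth). Over the 47 genes the median difference was 0.006 in starvation minus normal growth, -0.03 in metformin minus starvation and -0.03 in metformin minus normal growth. Of the relatives and the receptor of A2M, 0 of 5 measured were called in any comparison. At an unadjusted p under 0.05 there were 1, 1 and 2, against 9.88%, 23.6% and 28.5% of all genes. CD109, a membrane-anchored relative of A2M, was at 5.57, 5.88 and 5.47 (adjusted p 0.601 for starvation minus normal growth and 0.215 for metformin minus starvation). LRP1, the receptor that clears A2M complexes, was at 8.09, 8.25 and 8.46 (adjusted p 0.217 for metformin minus normal growth).

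**Figure D3:**
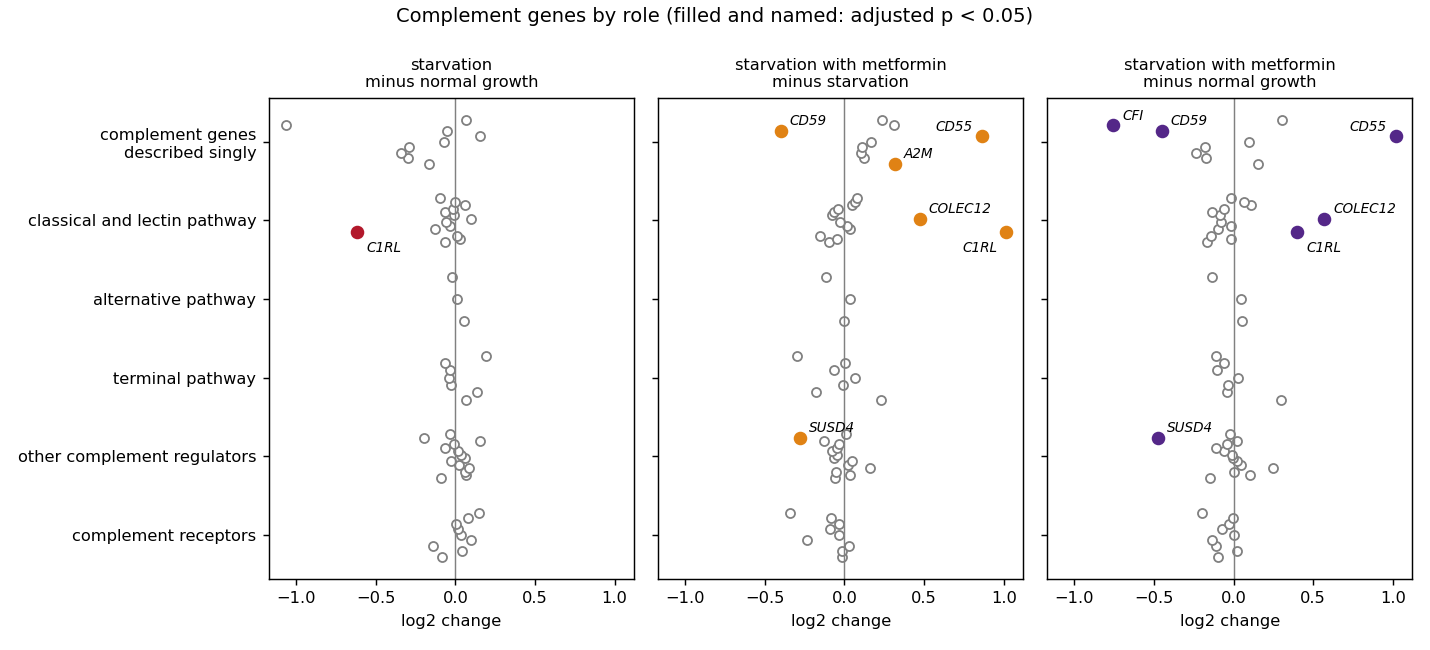
Log2 change of each measured complement gene, grouped by role, in the 3 comparisons. Each point is 1 gene, and filled, named points had an adjusted p under 0.05. Most genes lie within 0.2 of 0, and C1RL lies at -0.62 in starvation minus normal growth and at 1.02 in metformin minus starvation.

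Interferons, interleukin 6 and NF-kB are known to raise the transcription of complement genes in many cell types, and 17 of 18 listed receptors and factors of these routes were measured. In starvation minus normal growth 0 of the 17 were called by limma, with 4 at an unadjusted p under 0.05, all lower, against 9.88% of all genes in either direction. CEBPB, a C/EBP factor, was at 9.33, 9.26 and 9.28 in normal growth, 8.71, 8.56 and 8.78 in starvation and 9.48, 8.93 and 9.56 with metformin. The starved arrays lay below all the others, and the adjusted p was 0.0555 for starvation minus normal growth (-0.61) and 0.113 for metformin minus starvation (+0.64). CEBPD had an adjusted p of 0.088 in metformin minus starvation (+0.45), where again 0 of the 17 were called and 4 had an unadjusted p under 0.05, all higher, against 23.6% of all genes in either direction. In metformin minus normal growth 2 of the 17 were called, a share near the 12.5% of all genes. STAT3, which carries the interleukin 6 signal, was at a mean of 11.04 in normal growth, 10.68 in starvation and 10.74 with metformin. It fell by 0.30 (adjusted p 0.0359) from normal growth to metformin, and starvation minus normal growth was -0.35 (adjusted p 0.169). IFNGR2, a chain of the interferon gamma receptor, rose from normal growth to metformin by 0.24 (adjusted p 0.0487).

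C1S, C1R and C1RL are neighbours in the RefSeq gene order, as are the genes from C4BPB through CD55, CR2 and CR1 to CD46, and both regions were looked at after the values of their members were known. Of EMG1, LPCAT3, C1S, C1R, C1RL and RBP5, C1RL was the 1 gene called in starvation minus normal growth and in metformin minus starvation. In metformin minus normal growth C1RL rose and LPCAT3, a lysophospholipid acyltransferase, fell by 0.69 (adjusted p 0.0252). C1R and C1S lay between C1RL and LPCAT3 on the chromosome and also had smaller differences than either in that comparison. Of the 8 measured genes from C4BPB to PLXNA2, CD55 was the 1 called in both metformin comparisons, and CR2 next to it differed by -0.03 from starvation and 0.001 from normal growth. Apart from CD55 and CD46, these genes were dim, with means from 3.07 (CR1) to 4.85 (CD34) in normal growth, so their small differences say little. Over all genes the called share was 0.228% in starvation minus normal growth, 6.03% in metformin minus starvation and 12.5% in metformin minus normal growth. The neighbours CASP6, GAR1 and RRH of CFI were called in none of the comparisons, and RRH was dim, at a mean of 3.23 in normal growth. Near A2M, KLRG1, a lymphocyte receptor, fell by 0.61 (adjusted p 0.035) in metformin minus normal growth. It was dim, with means of 5.34 in normal growth, 4.60 in starvation and 4.72 with metformin, all below the array medians. Starvation minus normal growth was -0.73 for KLRG1 (adjusted p 0.197). Near CD59, KIAA1549L fell by 0.30 (adjusted p 0.0413) in metformin minus normal growth. No neighbour of C3 was called in any of the 3.

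**Figure D4:**
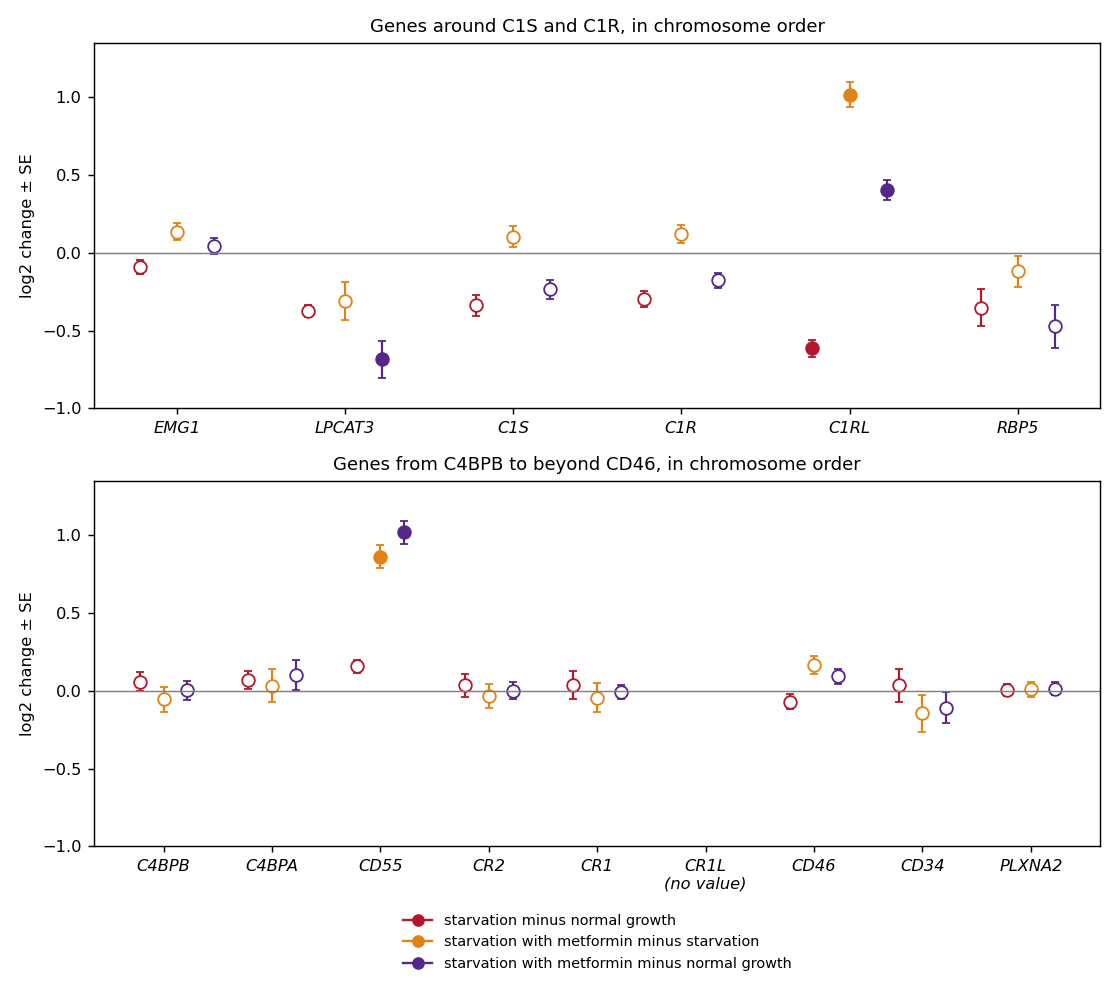
Log2 change with its standard error for the genes around C1S and C1R (top) and from C4BPB to PLXNA2 (bottom), in chromosome order. Filled points had an adjusted p under 0.05, and CR1L had no value. C1RL reaches 1.02 and CD55 1.02 while C1R, C1S and CD46 lie within 0.4 of 0.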

How the data were processed

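The log2 expression values deposited by the authors were used, with 1 column for each of the 9 arrays. The processing notes of the submitters list Affymetrix Expression Console with RMA and limma, and the methods of the study list Affymetrix Power Tools. Their versions were not given in the sources used here, and nothing was normalized again. RMA includes quantile normalization, which can hide a shift shared by most genes, and a median polish of each probe set.

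Each comparison was fitted to its own 6 arrays in R 4.3.3 with limma 3.58.1 (lmFit, eBayes). Benjamini-Hochberg adjustment ran over 33297 probe sets, and genes were called below an adjusted p of 0.05 whatever the fold. Of the probe sets, 19460 had 1 symbol, 1754 several and 12083 none. Where a gene had several single-symbol probe sets, the brightest over the 9 arrays stood for it. Fits were tested on simulated data. The number of arrays limits the precision.

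The members and gene lists were chosen with earlier results of these data known. All members are named, with the called genes of each complement list or otherwise some of those with the lowest p, and the 5 genes most like CFI. The neighbouring genes and some list genes were chosen after values were seen. Alternatives were 1 fit of all arrays, a common median, repeated quantile normalization, removal of probe sets under the 40th percentile, single-symbol probe sets only, averaged probe sets, eBayes with trend and robust options, the methods' t-test, a block for the replicate letter, and each array left out. That t-test comes from the study's general statistics and is not named in its array methods.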

Additional observations from a re-analysis of the deposited data

How the results depend on the processing

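No difference of the 9 genes changed direction under any alternative. In many alternatives it could not, because each of the 9 had 1 probe set and its difference of group means was left as it was. Only a common median, repeated quantile normalization and leaving out an array could alter the size or direction of a difference. In starvation minus normal growth, the count of the 9 genes called went from 0 to 1 (CFI) with all 9 arrays in 1 fit, with probe sets under the 40th percentile removed, with single-symbol probe sets only, with averaged probe sets and with trend and robust eBayes, while calls over all genes went from 42 to 46, 126, 154, 155 and 112. In metformin minus starvation it went from 3 to 1 (CD55) with a common median, and over all genes from 1110 to 490. In metformin minus normal growth it went from 3 to 6 without dim probe sets, to 5 with single-symbol probe sets or their mean, and to 7 with trend and robust eBayes, while calls over all genes went from 2305 to 3284, 3371, 3398 and 2957. Removing dim probe sets, keeping single-symbol ones and averaging them leave fewer features to adjust over. Of the other complement genes, 0 instead of 1 were called in starvation minus normal growth with a common median and with the methods' t-test, 1 instead of 3 in metformin minus starvation with a common median, and 1 instead of 3 in metformin minus normal growth with the t-test. The cause was not tested.

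When each array was left out in turn, the count of the 9 genes called stayed at 0 in starvation minus normal growth and ranged from 0 to 1 in metformin minus starvation and from 2 to 3 in metformin minus normal growth. Calls over all genes in these fits ranged from 0 to 16, from 0 to 718 (0 in 4 of 6 fits) and from 360 to 2540, so the counts of 0 say nothing about stability. For the other complement genes the ranges were 0 to 1, 0 to 2 and 1 to 5. Such fits have 5 arrays, and an arm of 2.

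Same-letter arrays did not deviate together in all pairs, so the letters were not taken as pairs. Their correlations were 0.29, -0.14 and -0.25 in metformin minus starvation, and -0.09, 0.01 and -0.16 in metformin minus normal growth. In starvation minus normal growth they were 0.09, 0.13 and 0.02, all positive, beside -0.11 to 0.04 for different letters. A pairing in that comparison is therefore not excluded. There the block lowered the SE of the CFI difference from 0.12 to 0.07, with a limma adjusted p of 0.203. With the letter as a replicate block, 0 of the 9 genes and 0 of the other complement genes were called in each of the 3 comparisons, as were 0 of all 18417 genes, with 6, 4 and 6 of the 9 at an unadjusted p under 0.05, against 9.09%, 19.1% and 25.2% of all genes.

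With 3 arrays a group, the smallest p an exact permutation test can give is 0.1.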
